A study of Arabidopsis thaliana with 18 samples.

Results

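The regions described here are 434 windows of 100 bp in Arabidopsis thaliana. In each of them 3 epigenetic recombinant inbred lines (epiRILs), 150, 193 and 232, had all lost DNA methylation by a set limit that epiRIL 92 did not reach. A window was taken when its methylation level in each of epiRILs 150, 193 and 232 lay at least 0.2 below that of wild-type Columbia (Col-wt) and its level in epiRIL 92 lay less than 0.2 below it. Of 43887 windows in the deposited table, placed every 50 bp and therefore overlapping, 39236 had a level in all 9 lines, and 434 of these (1.11%) met the rule. The study measured genomic DNA of aerial rosette tissue, harvested 21 to 22 days after sowing under 16 h of light and 8 h of dark, by bisulfite sequencing, which reads methylated cytosines as unconverted. The 9 groups, each with 2 libraries, were Col-wt, epiRILs 92, 150, 193 and 232, and epiHybrids 92, 150, 193 and 232, each numbered as its epiRIL. The table holds 1 value per line and window, already combined over its libraries and over all cytosine contexts, so no value has a replicate error, and each epiRIL and epiHybrid is represented by a single line.

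An epiRIL shares almost all of its DNA sequence with the wild type but has inherited some chromosome stretches in a poorly methylated state. Arabidopsis epiRIL populations have been derived from mutants of the methylation machinery, such as ddm1, which lacks a chromatin remodeller that opens transposons to methylation, and the labels used here do not name the mutant. In plants, CG methylation is copied after replication by the methyltransferase MET1, CHG methylation by CMT3, and CHH methylation is set again in each cell cycle by CMT2 or by the pathway guided by small RNAs. Transposons and their relics carry most of the dense methylation of the Arabidopsis genome. The parents of each epiHybrid were taken as its epiRIL and Col-wt, because the deposited mid-parent values equalled the mean of those columns within 5.6e-16.

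The shared losses lay almost wholly in one place, the chromosome 3 interval from 22235451 to 23207500 (TAIR10), with 422 of the 434 windows (97.2%). The other 12 lay in the chromosome 3 interval from 8937051 to 9698100, and 0 of 8460 measured windows of the chromosome 4 interval, 11363351 to 11824750, met the rule. Of the 863 windows with a Col-wt level of 0.2 or more in the interval that starts at 22235451, 48.9% were lost in epiRILs 150, 193 and 232 and not in epiRIL 92, and 29.8% were lower by 0.2 in no epiRIL. Fewer windows there were lower in only 1 or 2 of the 3 lines, with epiRIL 92 not lower: 55 in epiRIL 232 alone, 20 in epiRIL 150 alone and 11 in epiRIL 193 alone, with 19 in epiRILs 150 and 193, 13 in epiRILs 150 and 232 and 13 in epiRILs 193 and 232. Of 1284 such windows in the interval from 8937051, only 0.935% were in the shared set.

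**Figure D1:**
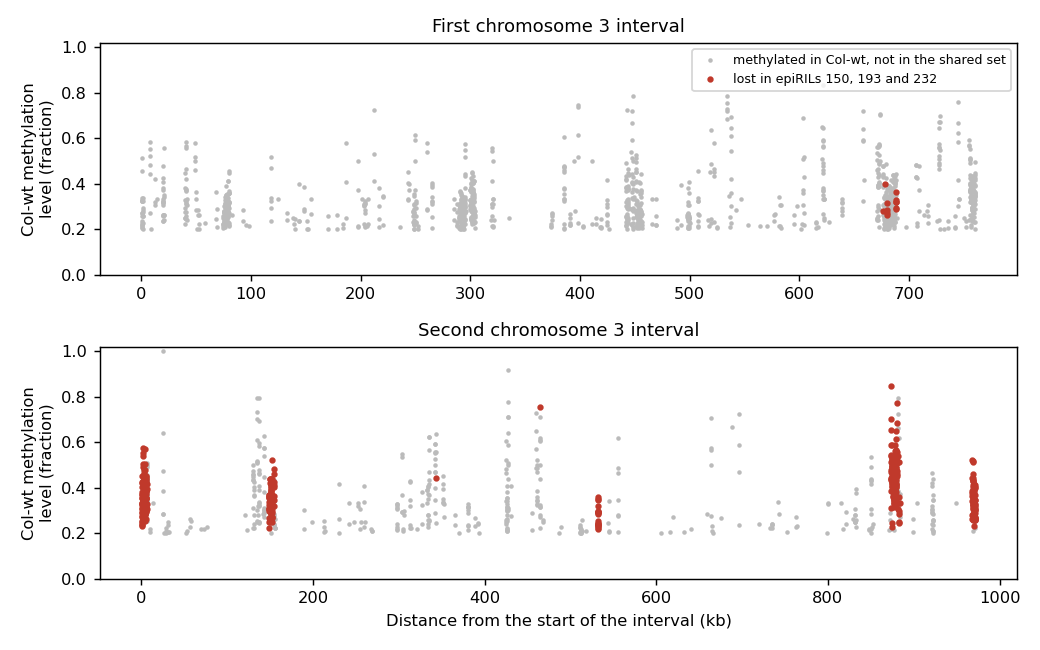
Col-wt methylation level (fraction, y axis) of every window at 0.2 or more, against the distance from the start of the interval (kb, x axis), for both chromosome 3 intervals. Red points are the windows lost in epiRILs 150, 193 and 232 and grey points all others; 422 of the 434 red points lie in the second interval, in a few dense clusters.

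By annotation (RefSeq, TAIR10.1), 268 of the 434 windows (61.8%) overlapped a pseudogene, a class that in this annotation can include transposon relics, 144 (33.2%) overlapped no gene, and 22 (5.07%) overlapped another RNA gene. A protein-coding gene was overlapped by 0 of them. Only windows with a Col-wt level of at least 0.2 could meet the rule. Of all 2624 such windows, 44.1% overlapped a pseudogene, 36.0% no gene and 16.3% a protein-coding gene. Among the 931 of them that were lower in none of the 4 epiRILs, the shares were 21.2% for a pseudogene, 42.3% for no gene and 32.4% for a protein-coding gene. The comparison windows came from all intervals, while the shared set came almost wholly from a single interval. Over all windows, pseudogenes covered 6.11% and protein-coding genes 65.8%. The windows of the shared set were also denser in cytosines, with a median of 43 in the line that had the most, against 38 in the windows lower in no epiRIL and 36 over all windows. These shares and medians were not tested.

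The levels that chose the windows are a description. Col-wt had a mean of 0.385 ± 0.0940 (SD over the 434 windows), with a lowest value of 0.221, a median of 0.375 and a highest value of 0.849. EpiRIL 92 had 0.391 ± 0.0982, and 405 of the windows stayed in the set when it had to be less than 0.1 below Col-wt. It was not at the Col-wt level in every window: at 9613201 to 9613300 it read 0.102, against 0.278 in Col-wt. The mean was 0.0174 ± 0.0387 in epiRIL 150, 0.0231 ± 0.0417 in epiRIL 193 and 0.0193 ± 0.0447 in epiRIL 232, which is 4.52, 6.01 and 5.01% of the Col-wt level. Each of these lines alone was at least 0.2 below Col-wt in 2.26, 2.61 and 3.34% of all windows, against 100% of this set by the rule. The loss was thus close to complete in most windows: all 3 epiRILs read under 0.05 in 341 of them (78.6%), and an epiRIL read 0.1 or more in 51 (11.8%).

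Few windows stood near the limits. Only 9 windows exceeded the loss limit by less than 0.02, and 27 others missed it by less than 0.02. The window at 22387851 to 22387950 was just inside, with 0.272 in Col-wt and 0.0714 in epiRIL 150, its least depleted line. The window at 22241951 to 22242050 was just outside, with 0.299 in Col-wt and 0.0989 in epiRIL 232. Another 69 windows were lost in epiRILs 150, 193 and 232 but also in epiRIL 92. They had a Col-wt median of 6 cytosines, against 43 in the shared set, and epiHybrid 92 stood at 35.9% of Col-wt in them.

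The epiHybrid columns took no part in the choice, although the columns of their parents did. Over the 434 windows epiHybrid 150 had a mean level of 0.252 ± 0.0905 (SD over windows), with a lowest value of 0.0571, a median of 0.243 and a highest value of 0.775. EpiHybrid 193 had 0.222 ± 0.0820, from 0.0332 through a median of 0.215 to 0.689. EpiHybrid 232 had 0.201 ± 0.0773, from 0.0384 through a median of 0.186 to 0.676. All 3 stood far above their epiRILs and below epiHybrid 92, whose parents both carried the methylation and which read 0.400 ± 0.0917. As shares of Col-wt the 4 epiHybrids held 65.4, 57.8, 52.2 and 104.0% in lines 150, 193, 232 and 92.

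**Figure D2:**
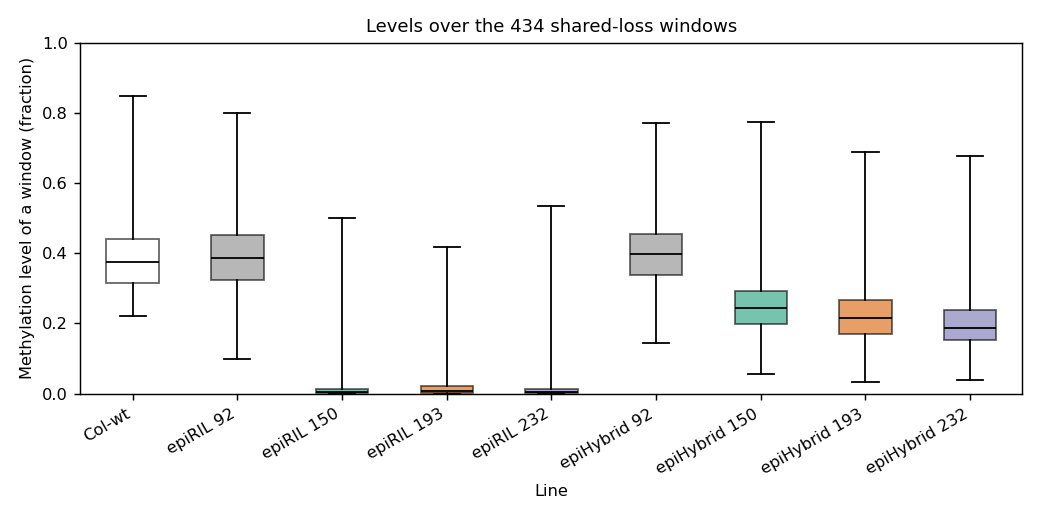
Methylation level (fraction, y axis) of the 434 shared-loss windows in each of the 9 lines (x axis). Boxes span the quartiles, the line is the median and whiskers reach the lowest and highest window; the medians of epiHybrids 150, 193 and 232 (0.243, 0.215 and 0.186) lie between those of Col-wt (0.375) and of epiRILs 150, 193 and 232, which are under 0.01.

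The mean of epiHybrids 150, 193 and 232 lay below epiHybrid 92 by 0.175 (a difference of -0.175), with all 3 lines below it. The grouping of 3 lines against 1 came from the rule, which used their epiRIL parents, so this direction was favoured by the choice of windows. An exact two-sided permutation test over the 4 epiHybrids gave p = 0.25, the smallest value that 3 lines against 1 allow, so the design cannot reach 0.05. Per window, all 3 were below epiHybrid 92 in 404 of 434 windows (93.1%). Windows at least 0.2 below epiHybrid 92 numbered 104 (24.0%) in epiHybrid 150, 165 (38.0%) in epiHybrid 193 and 218 (50.2%) in epiHybrid 232, where 0.421, 0.632 and 1.17% of all 39236 windows were that far below it. Windows at least 0.2 below Col-wt numbered 75, 132 and 190 of 434, against 0.469, 0.64 and 1.13% of all windows, and 0 in epiHybrid 92, with 0.257%. These comparisons share the Col-wt column or the epiHybrid 92 column and are not independent.

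On the same windows the 3 epiHybrids differed in a graded way. EpiHybrid 150 exceeded epiHybrid 193 by 0.0291 ± 0.0610 (SD over windows) and was the higher in 307 windows (70.7%). It exceeded epiHybrid 232 by 0.0509 ± 0.0664 and was the higher in 348 (80.2%). EpiHybrid 193 exceeded epiHybrid 232 by 0.0218 ± 0.0596 and was the higher in 287 (66.1%). Without the longest tract, described below, epiHybrids 193 and 232 were closer, with means of 0.207 and 0.195. The order 150, 193, 232 was the most frequent of the 6 possible orders, in 185 windows (42.6%), and it was also the most frequent in the 219 windows that do not overlap one another (42.9%). Each mean difference was smaller than its spread over windows, and with 1 value per line it could not be set against the spread between plants.

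A position of 0 marks the Col-wt level, 0.5 the mid-parent level and 1 the epiRIL level. Over the shared set the position was 0.363 in epiHybrid 150, 0.449 in epiHybrid 193 and 0.504 in epiHybrid 232. Both parents' levels had been used by the rule, so no test was made. When windows were picked by the levels of the windows 100 bp to their left and right, which share no base with them, the positions were 0.366, 0.453 and 0.513. EpiHybrid 150 lay above its mid-parent level by 0.0505 ± 0.0698 (SD over windows) and epiHybrid 193 by 0.0185 ± 0.0629, while epiHybrid 232 differed from it by -0.00133 ± 0.0661. The sign in line 232 was not stable: without the longest tract it was 0.0124. In the 931 windows lower in no epiRIL, epiHybrids 150, 193 and 232 differed from their mid-parent levels by 0.00546, 0.0177 and 0.00710. The excess of epiHybrid 193 was thus about as large there as in the shared set. EpiHybrid 92 lay above its mid-parent level by 0.0122 in the shared set and by 0.0170 in the 931 windows. Windows at least 0.1 above the mid-parent level numbered 74, 42 and 29 of 434 in lines 150, 193 and 232 (1.1, 1.07 and 0.839% over all windows), and windows at least 0.1 below it 4, 11 and 14 (0.405, 0.39 and 0.479% over all windows). In epiHybrid 92 these counts were 10 and 4 of 434, with 1.01 and 0.395% over all windows.

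Across the 219 windows that do not overlap, the 3 epiHybrids resembled one another more than they resembled the fully methylated lines. Pearson's r was 0.749 between epiHybrids 150 and 193, 0.679 between 193 and 232 and 0.664 between 150 and 232. It was 0.544, 0.524 and 0.412 between epiHybrid 92 and epiHybrids 150, 193 and 232. Between Col-wt and epiHybrid 92 it was 0.848. The windows share base composition and neighbouring positions, and these values describe this set only.

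The windows were gathered in tracts. Joined over gaps of up to 100 bp they formed 18 runs, which together covered 23300 bp. Of these, 11 runs had at least 5 windows and are called tracts, and they held 421 windows (97.0%). The tracts were 350 to 7000 bp long, with a median of 750 bp, and the 3 with the most windows held 322 (74.2%). Of the 11 tracts, 8 overlapped a pseudogene and 3 overlapped no gene. Of those 8 tracts, 5 overlapped the same pseudogene, AT3G60565. Within the spans of the tracts, 17 of the 438 windows were not in the set, a number that the joining limit of 100 bp keeps low. Joined over gaps of up to 2000 bp, all 434 windows formed 9 clusters, and 211 of the 645 windows in their spans were not in the set. Of these 211, 69 had no level in all 9 lines and 53 had a Col-wt level under 0.2.

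**Figure D3:**
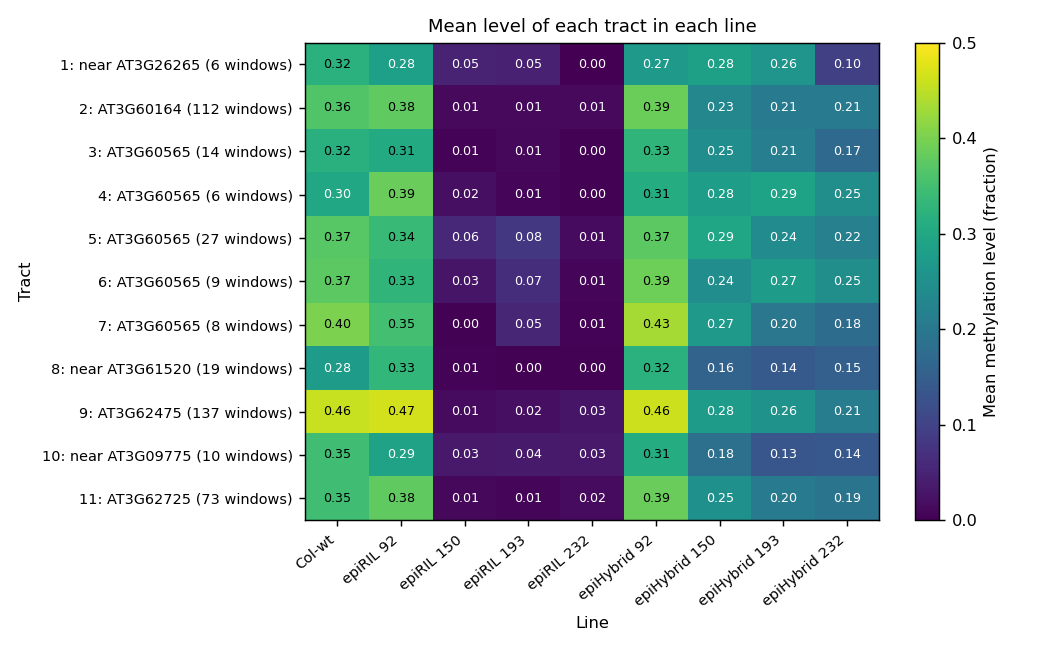
Mean methylation level (fraction, printed in each cell and shown by colour) of the 11 tracts (rows, numbered along chromosome 3 and named by a gene they overlap or the nearest gene within 1000 bp) in the 9 lines (columns). EpiRILs 150, 193 and 232 are at 0.0812 or less in every tract, and their epiHybrids lie above them in all 11, from 0.0956 to 0.294.

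Counts over the 11 tracts are not counts of 11 separate loci, because 5 of the tracts lay in the pseudogene AT3G60565. The gaps between those 5 held mostly windows without a level in all 9 lines. EpiHybrid 150 was the highest of the 3 in 9 of the 11 tracts, above epiHybrid 232 in 10 and above epiHybrid 193 in 9. EpiHybrid 193 was above epiHybrid 232 in 8, and the full order 150, 193, 232 held in 6. The share of the Col-wt level ranged from 53.0 to 93.6% over tracts in epiHybrid 150 (median 66.9%), and from 38.8 to 97.7% in epiHybrid 193 (median 58.9%). In epiHybrid 232 the median was 55.5% and the highest 82.9%, and its lowest share was the lowest of any line, with 0.0956 against 0.319 in Col-wt in the tract at 9625001 to 9625400. The range over tracts within a line was wider than the differences between the medians of the lines. EpiHybrid 150 was above its mid-parent level in 10 tracts, epiHybrid 193 in 9 and epiHybrid 232 in 7. All 3 were below epiHybrid 92 in 10 of the 11.

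The longest tract spans 23108851 to 23115850 (7000 bp, 137 windows, 31.6% of the set), across 3 annotated pseudogenes, AT3G62475, AT3G62480 and AT3G62490. Relative to Col-wt its mean was 60.3% in epiHybrid 150, 56.0% in epiHybrid 193, 46.4% in epiHybrid 232 and 100.8% in epiHybrid 92. Its borders were sharp. The 1000 bp to its left had a mean of 0.00380 in Col-wt and the 1000 bp to its right 0.00851, against 0.458 within it.

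The ends of this tract behaved unlike its body. In the window at 23108901 to 23109000 Col-wt read 0.849 and epiHybrid 92 read 0.770. EpiHybrids 150, 193 and 232 reached 0.771, 0.689 and 0.555 in it, although their epiRILs stood at 0.0114, 0.00714 and 0.175. At the other end, in the window at 23115701 to 23115800, Col-wt read 0.773 and the epiHybrids 0.760, 0.775, 0.611 and 0.676, with 0, 0 and 0.00595 in the 3 epiRILs. Over the last 200 bp the 3 epiHybrids held 95.3, 77.2 and 82.8% of the Col-wt level, over the first 250 bp 90.4, 76.4 and 63.1%, and over the rest of the tract 57.7, 54.2 and 44.3%. These ends were chosen for description because of their values.

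The number of cytosines with a value moved with these ends. In the window at 23108901 to 23109000 the count was 37 in Col-wt, epiRIL 92 and all 4 epiHybrids, but 22, 20 and 30 in epiRILs 150, 193 and 232. In the window at 23115701 to 23115800 it was 33 in Col-wt, epiRIL 92 and all 4 epiHybrids, and 7, 11 and 21 in the 3 epiRILs. Over the body of the tract epiRILs 150, 193 and 232 had 95.5, 97.9 and 98.0% of the cytosines of the best covered line, against 52.9, 60.1 and 80.4% over the last 250 bp and 75.3, 76.7 and 90.4% over the first 250 bp. The part of this coverage in the high levels of the epiHybrids at the ends was not tested.

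**Figure D4:**
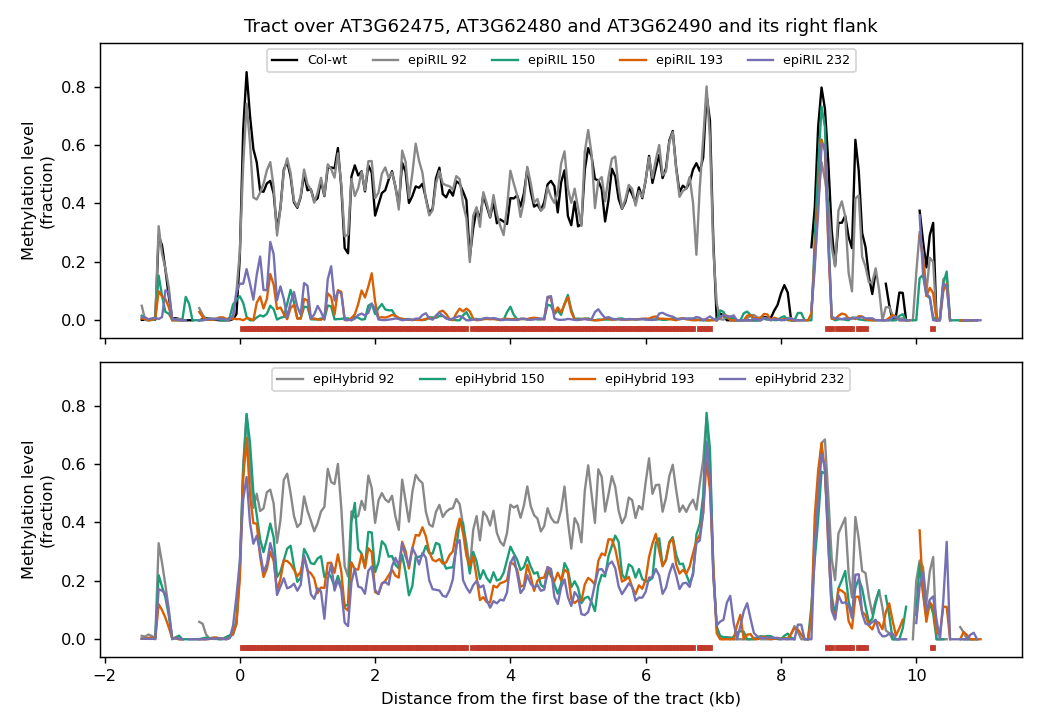
Methylation level (fraction, y axis) per window across the longest tract and its right flank, against the distance from the first base of the tract (kb, x axis), for Col-wt and the epiRILs (top) and the epiHybrids (bottom). Red marks are windows of the shared set; epiHybrids 150, 193 and 232 lie below epiHybrid 92 over most of the body and rise at both ends, to between 0.555 and 0.775 in the 2 windows with the highest Col-wt levels.

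The low levels of the epiRILs also varied along this tract. In the 27 windows at its left-hand end epiRILs 150, 193 and 232 averaged 0.0254, 0.0408 and 0.101, with 0.489 in Col-wt. In the 27 windows at its right-hand end they averaged 0.00340, 0.00389 and 0.00698, with 0.504 in Col-wt.

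The tract with the second most windows starts at the first base of the interval, 22235451, and ends at 22241250 (5800 bp, 112 windows), so its left border was not measured. It overlaps the pseudogenes AT3G60164 and AT3G60170 and the noncoding RNA gene AT3G60176. With a Col-wt mean of 0.364, epiHybrid 150 was at 63.5%, epiHybrid 193 at 56.3% and epiHybrid 232 at 56.8% of it. Here epiHybrids 193 and 232 did not separate, at 0.205 and 0.207. A further 4 windows at 22241601 to 22241850, with 0.361 in Col-wt, had a mean of 0.0106 in epiRIL 150 but 0.0844 in epiRIL 193 and 0.106 in epiRIL 232. In these windows the loss was thus less complete in epiRILs 193 and 232 but not in epiRIL 150. A tract can end where a line misses the loss limit, so weaker loss just beyond an end is partly set by the rule. Over the whole 1000 bp beyond that end, Col-wt read 0.381 and epiRILs 150, 193 and 232 read 0.0695, 0.167 and 0.197.

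The tract at 23203551 to 23207450 (3900 bp, 73 windows) overlaps the pseudogene AT3G62725 and ends 50 bp before the interval does. The protein-coding gene XT1, which encodes a xyloglucan xylosyltransferase of cell wall synthesis, lies within 1000 bp of its left end. The 1000 bp on that side had a mean of 0.00780 in Col-wt, against 0.346 in the tract. EpiHybrid 150 was at 72.3% of Col-wt, epiHybrid 193 at 58.9% and epiHybrid 232 at 55.5%. At its left end epiRILs 150 and 193 also had fewer cytosines, with 48.8 and 49.6% of the best covered line over 250 bp, against 91.7 and 95.1% in the body. The epiHybrids were not high at that end: in its first window, at 23203551 to 23203650, epiHybrids 150, 193 and 232 read 0.227, 0.0675 and 0.114, with 0.522 in Col-wt and 0.605 in epiHybrid 92.

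A shorter tract of 1050 bp at 22766951 to 22768000 (19 windows) lay between genes. The nearest is the protein-coding gene AT3G61520, and ACS1, which encodes an ACC synthase of ethylene synthesis, is also within 1000 bp. Both flanks of 1000 bp were near 0 in all 9 lines, at 0.00495 and 0.00579 in Col-wt. The level within it was 0.277 ± 0.0447 (SD over windows) in Col-wt, and the 3 epiRILs were down to 0.00545, 0.00342 and 0.00284. EpiHybrids 150, 193 and 232 stood at 0.158, 0.141 and 0.154, close to one another and at 57.1, 50.9 and 55.7% of Col-wt, while epiHybrid 92 read 0.319.

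The pseudogene AT3G60565 carried 5 tracts between 22383651 and 22389900, with 64 windows of the set. Of the 60 other windows in this span, 53 had no level in all 9 lines, so the gaps between its tracts hold mostly windows that could not be judged. The loss was least complete in its tract of 27 windows, at 22385601 to 22387200, where Col-wt read 0.371 and epiRILs 150, 193 and 232 read 0.0586, 0.0812 and 0.0141. In the stretch at 22385651 to 22386300, 6 windows of epiRIL 150 were at 0.1 or more, with a mean of 0.141, and 8 windows of epiRIL 193, also with a mean of 0.141. The epiHybrids stood high in the neighbouring tract of 6 windows at 22385001 to 22385350, with 93.6, 97.7 and 82.9% of Col-wt in lines 150, 193 and 232. In that tract epiRILs 92, 150, 193 and 232 had 72.1, 67.6, 64.8 and 67.6% of the cytosines of the best covered line, and epiHybrids 193 and 232 had 69.9 and 73.5%, and the part of this in the high shares was not tested. Elsewhere in the pseudogene the shares lay between 43.8 and 79.1%.

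To the right of the longest tract, 10 windows at 23117501 to 23118150 formed a tract near AT3G09775, an annotated long noncoding RNA gene. Col-wt read 0.347 there and epiHybrids 150, 193 and 232 read 0.184, 0.134 and 0.139. EpiHybrids 150 and 193 thus held 53.0 and 38.8% of Col-wt, the lowest share of Col-wt of any of the 11 tracts in these lines. EpiRIL 92 and epiHybrid 92 were also below Col-wt in this tract, at 83.0 and 89.6% of it. Cytosine counts were lowest in epiRIL 193 and epiHybrid 92, with 69.0 and 73.9% of the best covered line. The part of these in the low shares was not tested. Its first window, at 23117501 to 23117600, had 0.540 in Col-wt and kept 0.309, 0.256 and 0.277 in the 3 epiRILs. In the span from 23108851 to 23119150, 4 windows had a Col-wt level of 0.2 or more and were lower by 0.2 in none of the 3 lines. Most of these were lower by 0.2 in epiRIL 92. It read 0.178, 0.541, 0.482 and 0.225 in them, against 0.386, 0.797, 0.724 and 0.271 in Col-wt.

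The 12 windows of the interval that starts at 8937051 lay in or within 1000 bp of the pseudogenes AT3G26260 and AT3G26265 and differed from the others in surroundings. In the 1500 bp before the run of 4 windows at 9617151 to 9617400, the windows methylated in Col-wt (mean 0.299, 26 windows) read 0.266 in epiRIL 150 and 0.00834 in epiRIL 193. In the 1500 bp after it (Col-wt 0.274, 25 windows) they read 0.179 in epiRIL 150, while epiRIL 193 was back at 91.1% of the Col-wt mean. Within the run Col-wt read 0.282, epiRIL 150 0.0212 and epiRIL 193 0.00352. EpiRIL 193 was thus low before the run and in it, and epiRIL 150 was low in it and partly after it. Just after the run epiRIL 193 was not yet back: over all windows of the first 1000 bp it read 0.160, against 0.240 in Col-wt. EpiRIL 232 read 0.0118 before the run, 0.00488 in it and 0.0228 after it.

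EpiHybrids 150, 193 and 232 were all lowest in the run itself. EpiHybrid 150 read 0.322 before the run, 0.231 in it and 0.285 after it. EpiHybrid 193 read 0.270, 0.153 and 0.281. EpiHybrid 232 read 0.138, 0.0780 and 0.117. At the tract of 6 windows at 9625001 to 9625400, near AT3G26265, Col-wt read 0.319 and epiHybrids 150, 193 and 232 read 0.284, 0.261 and 0.0956. EpiHybrid 92 read 0.271 there. Over all 12 windows epiHybrids 150, 193 and 232 held 80.4, 69.9 and 28.5% of Col-wt, against 65.0, 57.5 and 52.7% in the 422 windows of the other interval, so the gap between epiHybrids 150 and 232 was far wider here. Their epiRILs differed too: epiRILs 150, 193 and 232 held 14.5, 8.21 and 0.858% of Col-wt in the 12 windows, against 4.29, 5.96 and 5.10%. EpiHybrid 92 held 89.7% in the 12 windows and 104.3% in the other interval. The wider gap between epiHybrids 150 and 232 rests on 12 overlapping windows and was not tested.

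**Figure D5:**
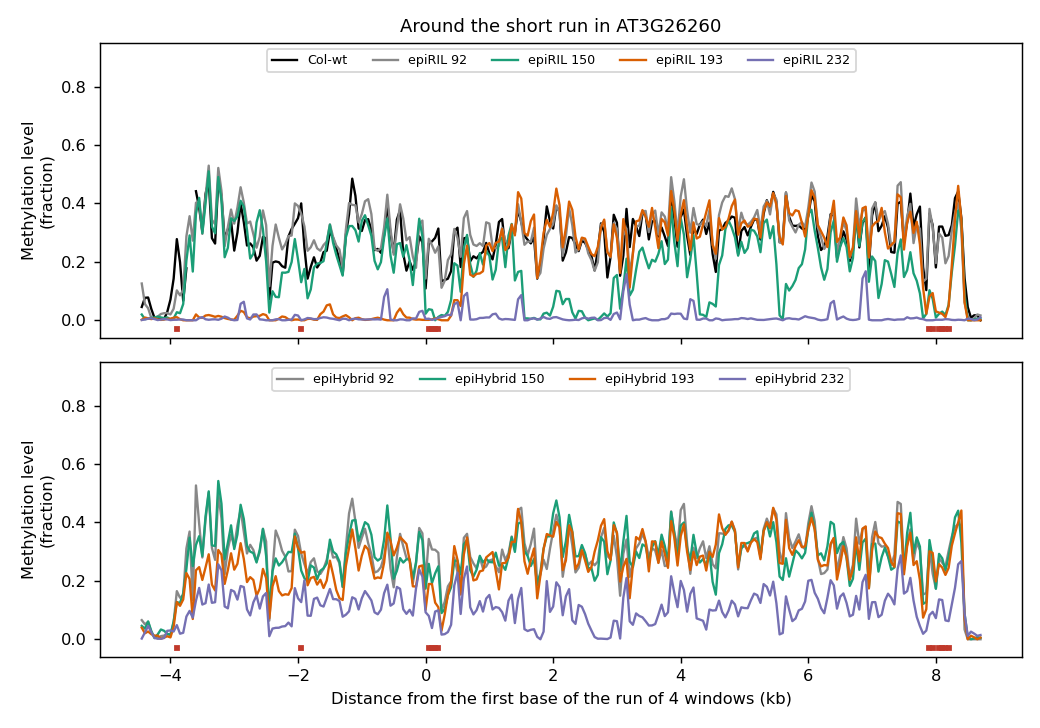
Methylation level (fraction, y axis) around the run of 4 windows in AT3G26260, against the distance from its first base (kb, x axis), for Col-wt and the epiRILs (top) and the epiHybrids (bottom); red marks are windows of the shared set. EpiRIL 193 is near 0 to the left of the run and still low just to its right. Farther right it is near Col-wt over most of the stretch, but low again at the red marks at 9625001 to 9625400. EpiRIL 150 is low in the run and in patches to its right, and epiRIL 232 is near 0 over most of both sides.

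The other runs were single windows, and 2 of them stood apart. The window at 22700101 to 22700200, near AT3G61330, passed the rule with a partial loss: Col-wt read 0.755 and epiRILs 150, 193 and 232 still read 0.501, 0.418 and 0.535, on 9 cytosines in every line. The window at 22578251 to 22578350, near AT3G61020, had 3 cytosines in Col-wt and read 0.25, 0.0909 and 0.405 in epiHybrids 150, 193 and 232. A minimum of 10 cytosines in all 9 lines removed both, and 413 of the 434 windows passed it.

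Windows lost in only 2 of the 3 lines were read in the same way. In the 285 windows lost in epiRILs 150 and 232 but not in 193 or 92, epiHybrid 193 held 104.5% of Col-wt and epiHybrids 150 and 232 held 75.5 and 58.2%. In the 216 windows lost in epiRILs 193 and 232 but not in 150 or 92, epiHybrid 150 held 105.1% and epiHybrids 193 and 232 held 72.5 and 59.2%. In the 25 windows lost in epiRILs 150 and 193 but not in 232 or 92, epiRIL 232 itself held only 61.8% of Col-wt, and epiHybrids 150, 193 and 232 held 69.3, 64.0 and 59.6%. In these sets every epiHybrid of a line that had lost the windows stood at a higher share of Col-wt than in the shared set, where epiHybrids 150, 193 and 232 held 65.4, 57.8 and 52.2%. Their epiRILs had also kept more than in the shared set, where epiRILs 150, 193 and 232 held 4.52, 6.01 and 5.01%. EpiRILs 150 and 232 held 10.2 and 6.40% in the 285 windows. EpiRILs 193 and 232 held 11.9 and 8.65% in the 216 windows, and epiRILs 150 and 193 held 23.8 and 36.8% in the 25. The sets lie at different positions, the Col-wt means were 0.314, 0.357 and 0.403 against 0.385, and the differences were not tested. In the 931 windows lower in no epiRIL, epiHybrids 150, 193 and 232 held 102.4, 103.5 and 98.2%.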

How the data were processed

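Per the submitters' processing notes, reads were handled with cutadapt, BS-Seeker2 and Bowtie2 on build TAIR10, with no versions. For each line and window of 100 bp the authors deposited the methylation level (a fraction) and a cytosine count. The 2 libraries of a line were already combined by steps not stated in the labels, which do not say whether they came from separate plants. Read depth is unknown, so no interval that needs it is given. CG, CHG and CHH sites share 1 value, so the contexts cannot be told apart. The authors' mid-parent fractions and differences were only used to check the parents, and their log2 ratios not at all.

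The rule, tracts and positions were computed in Python 3.11.15 with pandas 2.3.3 and tested on simulated data. Genes were assigned by position from RefSeq TAIR10.1. The correlation of protein-coding cover with cytosine number was 0.309, against 0.275 and 0.269 with the annotation moved 250 bp either way. Named genes are all those a tract overlaps, or the nearest within 1000 bp where it overlaps none. ACS1, XT1 and genes of shorter runs were added after values were seen. The members, lists and limits were chosen with earlier results of these data known. Sequences were not used here.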

Additional observations from a re-analysis of the deposited data

Results flagged for a closer look

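Among the 4 epiHybrids, the mean level of the whole shared set and of each of the 11 tracts was screened for a line whose gap to its nearest neighbour, divided by the range, exceeded Dixon's 95% critical value. Chance flags about 1 in 20 such groups, and the epiHybrids are different lines rather than replicates. In the tract at 9625001 to 9625400, epiHybrid 232 stood apart at 0.0956, below the other 3. In the tract at 22235451 to 22241250, epiHybrid 92 stood apart at 0.387, above the other 3. In the tract at 22766951 to 22768000, epiHybrid 92 stood apart at 0.319, again above the other 3. Over the whole set the ratio for epiHybrid 92 was 0.745, under the critical value. The rule used the epiRIL parents, so the choice of windows favoured a level of epiHybrid 92 above the other 3. The flags of epiHybrid 92 therefore cannot be set against the chance rate, and no conclusion is drawn from them.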

How the results depend on the processing

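The number of windows was 522 with a loss limit of 0.15, 287 with 0.3, 219 for every second window, 249 without the 2 tracts at the borders of the interval, 297 without the longest tract and 12 without the interval that holds most of them. The number of tracts was 9 to 13 under the 3 alternatives tried. In those 12 windows epiHybrid 150 held 80.4% and epiHybrid 232 28.5% of Col-wt, and epiHybrid 232 had a position of 0.721 and a difference from its mid-parent level of -0.0679. That difference changed sign when each tract counted once (0.00528) and without the longest tract (0.0124). Over all alternatives the position was 0.229 to 0.388 in line 150 and 0.328 to 0.471 in line 193, and, apart from those 12 windows, 0.463 to 0.537 in line 232. The difference of the 3 epiHybrids from epiHybrid 92 was between -0.199 and -0.0933 over all alternatives, with an exact permutation p of 0.25 in the full set and 0.5 in those 12 windows. With line 150, 193 or 232 left out it was -0.189 to -0.163, with an exact permutation p = 0.333, the smallest that 3 lines allow. Leaving out the longest or the border tracts was chosen after seeing the data. No paired analysis was possible because the table has 1 column per line and no columns per replicate. The causes of these changes were not tested.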
